A study of Mus musculus with 4 samples.

Results

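The genes described here are 37 genes of sterol synthesis, sterol transport and fatty acid synthesis, measured in sorted T cells from the mouse gut. They come from a list of symbols that was chosen with earlier results of these data known. Each gene was represented by the brightest of its probe sets that carried its symbol alone. Of the 37 genes, 35 had such a probe set, and 34 were bright enough to be tested among 12252 genes tested in all. Acat2 and Soat1 are not analysed here, since the annotation used gave them no probe set of 1 symbol, and Fasn was below the limit on dim probe sets (a signal of about 27.3).

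The cells were CD4+ T cells released with collagenase from the lamina propria, the connective tissue under the epithelium, of the large intestine. The mice were of a 129/B6 mixed strain. Every mouse was heterozygous for a knock-in that put green fluorescent protein (GFP) into the Gpr15 locus, so GFP-negative and GFP-positive cells alike carried 1 altered copy of Gpr15, a chemoattractant receptor gene. GFP stood in for Gpr15 expression, and each sorted fraction was hybridised to 2 Affymetrix arrays, replicate 1 and replicate 2, with no further treatment named in the labels. Neither the animals' age nor the number of mice behind a sample is stated in the labels, so the p-values reflect only the spread among these 4 samples.

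Cholesterol is built from acetyl-CoA through mevalonate, squalene and lanosterol. The membrane-bound factors SREBP1 and SREBP2 switch on the genes of this pathway when sterols are low. SCAP escorts them out of the endoplasmic reticulum, and the INSIG proteins hold them back when sterols are plentiful. Fatty acids are made from the same acetyl-CoA and are then lengthened and desaturated, and T cells draw on both routes for new membrane when they grow and divide.

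On each array the signal is a linear intensity for each of 45101 probe sets, scaled to a trimmed mean of 150.0. Gpr15 gave signals of 146 and 162 in the GFP-negative samples and 619 and 729 in the GFP-positive samples. The difference was wider than the spread within either group, at 2.02 on the log2 scale (1.48 to 2.56, adjusted p = 0.0829). Xist, which is expressed in female cells, was at 4172 and 4313 in replicate 1 of either fraction but at 55.1 and 112 in replicate 2, so the replicate numbers differed in a gene of the animals' sex. Differences within each replicate number are therefore given below. The 7 measured markers of CD4 T cells summed to between 14118 and 16515 on all arrays. The summed signal of 11 epithelial markers, 2 of them (Muc2 and Vil1) below the dim limit, was 851 and 896 on the GFP-negative arrays and 2521 and 783 on the GFP-positive arrays, with Epcam and Krt18 higher at an unadjusted p under 0.05, where 10.2% of all tested genes were. Epcam was at 72.3 and 42.5 against 246 and 175, higher on both GFP-positive arrays, and Krt18 at 38.2 and 50.6 against 225 and 76.5. For 15 macrophage and dendritic cell markers, 6 of them dim (Itgam, Adgre1, Fcgr1, C1qa, C1qc and Spi1) and Csf1r higher at that threshold, the sums were 314 and 520 against 479 and 1729. For 8 stromal and endothelial markers, 3 of them dim, they were 442 and 1075 against 594 and 937. For 6 B and plasma cell markers, 1 of them dim, the sums lay between 3995 and 6556, mostly from Jchain, and for 3 CD8 T and NK cell markers, 2 of them dim, between 63.7 and 91.5. In a sorted fraction measured in bulk, fewer cells that express a gene and less RNA per cell cannot be told apart.

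As a whole the sterol and fatty acid genes were close to level between the sorted fractions. Differences are GFP-positive minus GFP-negative means of log2(signal + 16), tested with limma. Their median was -0.01 over 34 genes, against 0.07 over all 12252 tested genes, and 17 of the 34 were above 0, or 50%, against 57.7% of all tested genes. At a Benjamini-Hochberg adjusted p under 0.05, limma called 0 of the 34 genes, where 0.0326% of all tested genes were called, and the smallest adjusted p among them was 0.240. At an unadjusted p under 0.05, 4 genes were higher in GFP-positive cells, which is 11.8% against 10.2% of all tested genes. These were Mvk, Hsd17b7, Acaca and Elovl6. None was lower at that threshold, where 4.37% of all tested genes were. Leaving out GFP-negative replicate 2 left 2 of them, Elovl6 and Mvk, and leaving out GFP-positive replicate 1 left 1, Mvk, with Scd2 then lower. Without GFP-negative replicate 1 the higher genes were Elovl6, Fads2, Hsd17b7 and Mvk. Without GFP-positive replicate 2 they were Elovl6, Fads2 and Mvk.

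The groups did not overlap for 7 genes that were higher and 6 that were lower, or 20.6% and 17.6%, against 28.7% and 18.7% of all tested genes. Where the log2 difference also reached 0.5, 5 were higher and 1, Scd2, was lower, or 14.7% and 2.94%, against 15.5% and 6.6% of all tested genes. With a difference of at least 1, Mvk was higher and 0 genes were lower, against 3.4% and 1.31%. The 95% interval lay within a 2-fold change in both directions for 20 of the 34 genes, or 58.8%, against 56.8% of all tested genes. Scaling each array to a common median moved the median of all tested genes by -0.27 on the log2 scale. It moved the median of the 34 genes to -0.31 and left 7 of them above 0. At an unadjusted p under 0.05 by limma, 1 was then higher (Mvk) and 6 were lower (Dhcr7, Pmvk, Sc5d, Scd2, Sqle and Srebf2). Among all 12252 tested genes, 490 were higher and 1699 lower under that scaling. Taken relative to the median of all tested genes, the median of the sterol and fatty acid genes was -0.08 as deposited and -0.11 after median scaling. Dim genes more often had a difference above 0 than bright ones. Of the tested genes whose mean signal was under about 101, 70.2% had a difference above 0, as did 7 of 10 sterol and fatty acid genes there. Of the brighter genes 45.2% did, as did 10 of 24 of the listed genes.

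**Figure D1:**
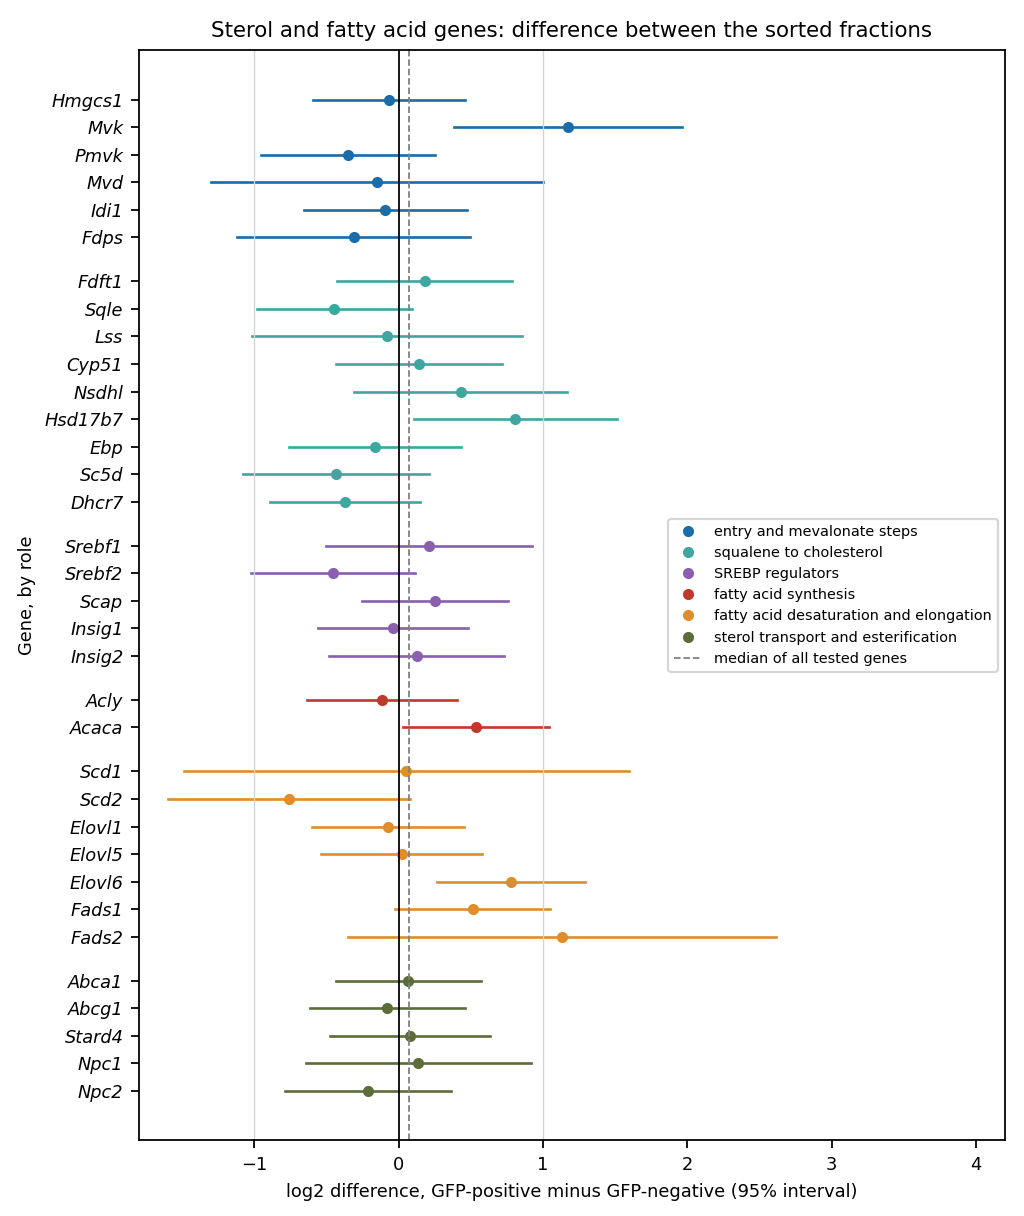
Log2 difference between GFP-positive and GFP-negative cells (x axis) for each tested sterol and fatty acid gene (y axis, ordered and coloured by role), with its 95% interval from limma. Most points lie near 0 and near the dashed line, the median of all tested genes at 0.07; the intervals of Mvk, Hsd17b7, Acaca and Elovl6 lie above 0.

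The first steps join acetyl units and turn them into the isoprenoid building block of sterols. Of the 6 tested genes of this group, 1 was above 0 and 5 below, and their median difference was -0.12. Hmgcs1, the synthase that makes HMG-CoA, gave signals of 2660 and 3006 in the GFP-negative samples and 2806 and 2600 in the GFP-positive samples. The groups overlapped, and the difference was -0.07 (95% interval -0.59 to 0.46, adjusted p = 0.920). All 5 probe sets of Hmgcs1 were bright enough to compare, and their differences ran from -0.09 to -0.05, while cyclic loess normalization turned the brightest to 0.01. Idi1, the isomerase that makes dimethylallyl diphosphate, had signals of 1146 and 1428 against 1142 and 1260. Here too the groups overlapped, with a difference of -0.09 (-0.65 to 0.47).

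Mvk, the kinase that phosphorylates mevalonate, was the gene of this group that stood apart. Its signals were 56.7 and 25.1 on the GFP-negative arrays and 113 and 101 on the GFP-positive arrays. Both GFP-positive arrays were above both GFP-negative arrays, and the difference was 1.17 (0.38 to 1.96), with an unadjusted p of 0.0112 and an adjusted p of 0.244. Within replicate 1 it was 0.83, and within replicate 2 it was 1.51. It was 0.76 when GFP-negative replicate 2 was left out. A dimmer probe set of Mvk, below the dim limit, went the other way at -0.57, with signals of 40.4 and 23.1 against 11.5 and 20.6. With the mean of its probe sets the gene's difference was 0.30. Pmvk, the next kinase, had signals of 114 and 148 against 87.0 and 111, non-overlapping groups and a difference of -0.35 (-0.95 to 0.25). Mvd, the decarboxylase after it, and Fdps, which makes farnesyl diphosphate, had differences of -0.15 and -0.31, and their signals overlapped between the groups.

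From squalene to cholesterol 9 genes were tested, 4 above 0 and 5 below, with a median of -0.08. Dhcr7, which reduces the last double bond of cholesterol's precursor, gave signals of 949 and 1052 in the GFP-negative samples and 796 and 743 in the GFP-positive samples. The GFP-positive arrays were both lower, and the difference was -0.37 (-0.89 to 0.15, adjusted p = 0.474). Cyp51, the lanosterol demethylase, had signals of 769 and 708 against 926 and 719. The groups overlapped, the replicate 2 signals being nearly level, and the difference was 0.14 (-0.43 to 0.72), turning to -0.17 under median scaling. Fdft1, the squalene synthase, had signals of 271 and 378 against 365 and 365 and a difference of 0.18 (-0.42 to 0.79), with -0.12 under median scaling. Sqle, the epoxidase often named as a rate-limiting step after squalene, had signals of 200 and 220 against 138 and 162. Both GFP-positive arrays were lower, and its difference was -0.44 (-0.98 to 0.09, unadjusted p = 0.0874).

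Hsd17b7, the reductase of the sterol demethylation complex, gave signals of 242 and 149 in the GFP-negative samples and 370 and 322 in the GFP-positive samples. Its groups did not overlap, and the difference was 0.81 (0.11 to 1.51), with an unadjusted p of 0.0307 and an adjusted p of 0.306. The difference was 0.58 within replicate 1 and 1.03 within replicate 2. Leaving out GFP-negative replicate 2 brought it to 0.49 (unadjusted p = 0.141), and leaving out GFP-negative replicate 1 brought it to 1.13. Under median scaling it was 0.51 (unadjusted p = 0.117), and with the mean of its probe sets 0.48. This probe set carries the _x_ suffix that Affymetrix gives to sets with probes that can match other transcripts. A dimmer set without that suffix had signals of 21.4 and 25.4 against 55.3 and 42.7, a difference of 0.72, and the other sets of the gene had differences of 0.34 and 0.04. Nsdhl, which acts just before it in the same complex, had a difference of 0.43 (-0.31 to 1.17), with 0.41 and 0.45 within the replicate numbers, although its groups overlapped. Lss, Ebp and Sc5d, which cyclise, isomerise and desaturate the sterol ring, had differences of -0.08, -0.16 and -0.44. For Sc5d the groups did not overlap, while another probe set of it had a difference of 0.42.

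Promoter sequence was compared because sterol genes are textbook targets of SREBP acting beside NF-Y, a factor that binds CCAAT boxes. RefSeq promoters (build GRCm38.p6) were on hand for 28 of the 37 genes, and the 250 bases before each start were searched on both strands. The letters CCAAT stood before at least 1 start of 21 of the 28 genes, or 75%, against 39.4% of the 14453 array genes with a promoter and 33.8% of all 32851 promoters. A core of the sterol regulatory element, TCACNCCAC with N for any base, stood before 1 of the 28 genes, Hmgcs1, or 3.57%, against 1.27% of the array genes and 1.05% of all promoters. Only this exact pattern was searched, so a sterol element with other letters would be neither counted nor marked. The letters of the pair of motifs do not overlap. The stretches shown here come from a pair of bright genes with small differences (Hmgcs1 and Cyp51) and from the 3 genes with larger ones among those at an unadjusted p under 0.05 (Mvk, Hsd17b7 and Elovl6). Capitals mark CCAAT, which reads ATTGG on the other strand, and the sterol element core. Each is written 5′ to 3′ on the gene's strand, and the stretches are chr13:119690171-119690320 (plus strand), chr5:4104698-4104807 (minus), chr5:114444089-114444268 (plus), chr1:169969206-169969385 (minus) and chr3:129532266-129532385 (plus).
Hmgcs1: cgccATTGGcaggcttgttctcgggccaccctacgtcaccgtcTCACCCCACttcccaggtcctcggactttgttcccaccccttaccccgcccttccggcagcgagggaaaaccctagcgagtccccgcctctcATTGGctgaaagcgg
Cyp51: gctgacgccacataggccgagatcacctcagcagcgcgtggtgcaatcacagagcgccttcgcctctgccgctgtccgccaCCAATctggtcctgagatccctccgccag
Mvk: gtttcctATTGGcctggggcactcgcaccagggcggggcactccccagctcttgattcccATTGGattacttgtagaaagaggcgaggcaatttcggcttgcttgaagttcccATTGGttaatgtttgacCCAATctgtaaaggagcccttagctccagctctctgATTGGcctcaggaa
Hsd17b7: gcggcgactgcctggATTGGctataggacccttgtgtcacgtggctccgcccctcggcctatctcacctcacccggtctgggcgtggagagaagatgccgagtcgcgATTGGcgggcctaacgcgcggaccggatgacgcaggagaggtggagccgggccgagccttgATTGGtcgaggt
Elovl6: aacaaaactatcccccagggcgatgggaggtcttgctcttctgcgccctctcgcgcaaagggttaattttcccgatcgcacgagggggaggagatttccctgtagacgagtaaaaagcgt

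The Mvk stretch holds 5 CCAAT boxes and the Hsd17b7 stretch 3, while the 250 bases before Elovl6 hold 0. Among tested genes with a promoter on hand, the 19 with CCAAT had a median difference of -0.07, ranging from -0.45 to 1.17, with 7 above 0. The 6 without it had a median of 0.39, ranging from -0.12 to 1.13, with 5 above 0. The genes without CCAAT are Scap, Acly, Acaca, Elovl6, Fads2 and Abca1, so 4 of the 6 act on fatty acids, whereas most genes with it make sterols. Scap, Acaca, Fads2 and Abca1 had a mean signal under about 101, as did Mvk, Mvd and Lss among genes with CCAAT. Of all tested genes that dim, 70.2% had a difference above 0. The part of brightness in this split was not tested, and the tested genes as a whole were not split by CCAAT. The match of letters is a description of sequence and not of binding.

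The genes that sense sterols and set the pathway's activity had a median difference of 0.13 over 5 tested members, which turned to -0.17 under median scaling and to -0.12 without GFP-negative replicate 1. Insig1, which retains the SREBP complex and is itself a target of SREBP, was bright on every array, at 4919 and 5491 in GFP-negative and 5107 and 5007 in GFP-positive cells. The groups overlapped, with a difference of -0.04 (-0.56 to 0.48), and quantile and cyclic loess normalization turned it to 0.02 and 0.04. Srebf2, the gene of SREBP2, had signals of 834 and 728 against 507 and 631. Both GFP-positive arrays were lower, and the difference was -0.45 (-1.02 to 0.12), with an unadjusted p of 0.0990 and an adjusted p of 0.427. It was -0.70 within replicate 1 and -0.20 within replicate 2. A second probe set of Srebf2 had signals of 316 and 342 against 286 and 243 and a difference of -0.30, so its groups did not overlap either. At an unadjusted p under 0.05 Srebf2 was lower under median scaling, with a pseudocount of 64 and with the trend and robust settings of limma.

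Insig2, the second INSIG gene, had signals of 258 and 183 against 239 and 239 and a difference of 0.13 (-0.48 to 0.73), which median scaling turned to -0.17. Srebf1, the gene of SREBP1, had a difference of 0.21 (-0.51 to 0.92) and signals of 77.9 and 132 against 109 and 132. Scap had signals of 80.8 and 84.2 against 99.7 and 103. Its groups did not overlap, and the difference of 0.25 (-0.25 to 0.76) was 0.26 and 0.24 within the replicate numbers. Median scaling turned Srebf1 to -0.07 and Scap to -0.02.

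**Figure D2:**
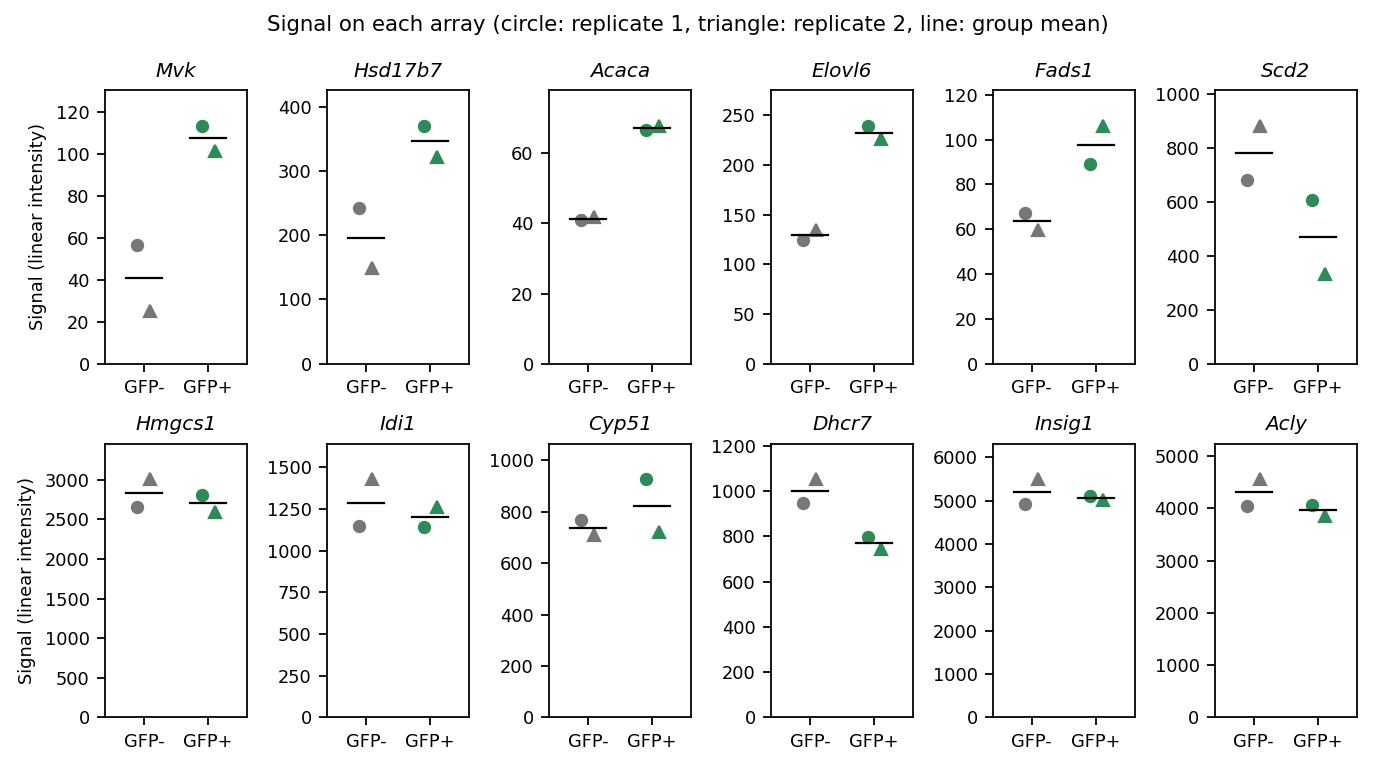
Linear signal (y axis, from 0) on each array for 12 sterol and fatty acid genes, by sorted fraction (x axis); circles are replicate 1, triangles replicate 2 and lines group means of 2 arrays. In the upper row the groups do not overlap, with Scd2 lower and the other genes higher in GFP-positive cells; in the lower row are 6 bright genes, of which Dhcr7 alone has groups that do not overlap.

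Fatty acid synthesis starts with Acly, which splits citrate into acetyl-CoA, and Acaca, the carboxylase that commits acetyl-CoA to fatty acids. Acly was bright, with signals of 4055 and 4556 on the GFP-negative arrays and 4074 and 3863 on the GFP-positive arrays. The groups overlapped, with a difference of -0.12 (-0.64 to 0.41). Another bright probe set of Acly had a difference of 0.01, with signals between 1692 and 1789 on all 4 arrays. Acaca was dim, with signals of 40.9 and 41.8 against 66.7 and 67.9. The groups were far apart relative to the spread within them, and the difference was 0.54 (0.03 to 1.04), with an unadjusted p of 0.0404 and an adjusted p of 0.326. It was 0.54 within each replicate number. Leaving out any 1 array, or any other normalization tried, put its unadjusted p above 0.05. A second probe set of Acaca had overlapping groups and a difference of -0.01. Fasn, the fatty acid synthase, was below the dim limit, with signals of 16.6 and 17.8 against 29.2 and 43.7. When dim genes were tested too, its difference was 0.65 (unadjusted p = 0.0471, adjusted p = 0.432).

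The 7 genes of fatty acid desaturation and elongation had the widest spread of differences, from -0.76 to 1.13, with 5 above 0 and a median of 0.05. That median was 0.45 without GFP-negative replicate 2, 0.43 without GFP-positive replicate 1 and -0.04 without GFP-negative replicate 1. Elovl6, which lengthens palmitate to stearate, gave signals of 124 and 134 in the GFP-negative samples and 239 and 226 in the GFP-positive samples. The groups did not overlap, and the difference was 0.78 (0.26 to 1.29), with an unadjusted p of 0.0103 and an adjusted p of 0.240. It was 0.87 within replicate 1 and 0.69 within replicate 2. Its other probe sets had differences of 0.39 and 0.28 with overlapping groups. Over the 14 settings tried, the difference of Elovl6 ran from 0.48 to 0.84 and its adjusted p from 0.136 to 0.507.

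Fads1, the delta-5 desaturase of polyunsaturated fatty acids, had signals of 67.2 and 59.7 against 89.3 and 106. Its groups did not overlap, and the difference was 0.51 (-0.02 to 1.05, unadjusted p = 0.0573). Its second probe set had signals of 28.7 and 26.2 against 49.0 and 58.5 and a difference of 0.68. Fads2, the delta-6 desaturase, had signals of 75.1 and 20.9 against 191 and 62.4. The groups overlapped, the replicate 1 arrays of both fractions being the brighter, while the difference was 1.18 within replicate 1 and 1.09 within replicate 2 (1.13 in all, -0.35 to 2.62, unadjusted p = 0.110). With the replicate number as a block its unadjusted p was 0.00261 and its adjusted p 0.152. It was 0.43 without GFP-positive replicate 1, 0.48 without GFP-negative replicate 2, 1.79 without GFP-negative replicate 1 and 1.83 without GFP-positive replicate 2. A second probe set of Fads2, below the dim limit, had signals of 7.71 and 14.4 against 46.6 and 42.7. Fads2 was brightest on the GFP-positive replicate 1 array, where the epithelial markers summed to 2521, and the part of those cells in its signal was not tested. Epcam, Krt18 and Cldn7, like Mvk, Hsd17b7, Acaca and Elovl6, were higher on both GFP-positive arrays. Krt8, Krt19, Krt20, Cdh1, Muc2, Car1 and Lgals4 were lower on GFP-positive replicate 2 than on either GFP-negative array. On GFP-positive replicate 1 all of these but Krt20 were higher than on either GFP-negative array. Krt8, for example, was at 89.0 and 118 against 438 and 83.2. The epithelial markers summed to 2521 on GFP-positive replicate 1 and 783 on GFP-positive replicate 2, against 851 and 896 on the GFP-negative arrays. The part of epithelial cells in the signals of Mvk, Hsd17b7, Acaca and Elovl6 was not tested either.

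Scd2, a stearoyl-CoA desaturase, gave signals of 681 and 884 in the GFP-negative samples and 610 and 333 in the GFP-positive samples. It was the lowest of the 34 differences, at -0.76 (-1.60 to 0.08), with an unadjusted p of 0.0679 and an adjusted p of 0.375. Within replicate 1 the difference was -0.16 and within replicate 2 it was -1.36, and without GFP-positive replicate 2 it was -0.34. Its probe sets did not run one way, since the others had differences of -0.24 and 0.82. Scd1, its close relative, had signals of 132 and 480 against 185 and 377. The replicate 2 arrays were the brighter ones in both fractions, as they were for the stromal and endothelial markers, whose part in the Scd1 signal was not tested. The difference of Scd1 was 0.05 (-1.49 to 1.59), or -0.25 under median scaling, and its interval is too wide to place it. A dimmer probe set of Scd1 had signals of 40.3 and 20.3 against 90.0 and 49.9. Its groups did not overlap, and its difference was 0.89. With the mean of its probe sets the difference of Scd1 was 0.47. Elovl5, an elongase of polyunsaturated fatty acids, was bright at 5474 and 5984 against 6446 and 5237. Its difference was 0.02 (-0.54 to 0.58), turning to -0.30 under median scaling, and a second bright probe set of it had a difference of 0.08. Elovl1, which lengthens very long saturated chains, had a difference of -0.07 (-0.60 to 0.45).

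**Figure D3:**
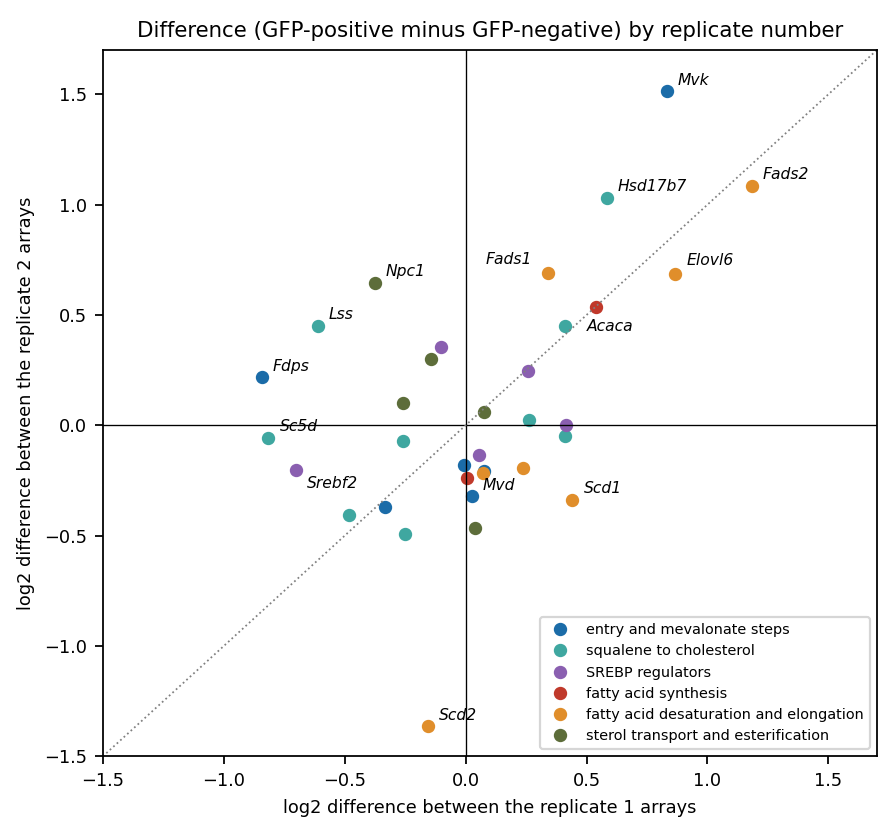
Log2 difference, GFP-positive minus GFP-negative, within replicate 1 (x axis) and within replicate 2 (y axis), 1 point for each of the 34 tested genes, coloured by role; the dotted line marks equal differences. Of the 34 genes, 19 had the same sign in both, with Mvk, Fads2, Hsd17b7 and Elovl6 farthest to the upper right and Scd2 near 0 in replicate 1 but at -1.36 in replicate 2.

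By the brightest probe set of each gene, sterol transport showed the narrowest range, from -0.21 to 0.13 over 5 tested genes. Every 95% interval in this group lay within a 2-fold change in both directions. Soat1, the sterol storage gene of this group, was not analysed. Npc2, which hands cholesterol out of the lysosome, had signals of 1757 and 1973 against 1804 and 1424 and a difference of -0.21 (-0.79 to 0.36). The other probe sets of Npc2 had differences of -0.19, 0.19 and -1.05, and the groups did not overlap for the 1st and last of these. Stard4, a carrier of sterol between membranes, had signals of 948 and 788 against 856 and 972. The difference was 0.08 (-0.48 to 0.63), or -0.24 under median scaling. Abcg1, a cholesterol exporter induced by the oxysterol receptor LXR, had signals of 699 and 627 against 582 and 674, with overlapping groups and a difference of -0.08 (-0.62 to 0.46). Abca1, the other LXR-induced exporter, had signals of 82.2 and 81.1 against 87.4 and 85.2. The groups did not overlap, but the difference was 0.07 (-0.44 to 0.57), and it turned to -0.06 under quantile, -0.05 under cyclic loess and -0.20 under median normalization. A dimmer probe set of Abca1 had signals of 36.3 and 25.9 against 59.1 and 40.1, non-overlapping groups and a difference of 0.47. Npc1, the membrane partner of Npc2, had a difference of 0.13 that was -0.38 within replicate 1 and 0.65 within replicate 2, and quantile, cyclic loess and median normalization each turned it below 0.

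Agreement between the replicate numbers was limited. The sign of the difference was the same within both numbers for 19 of the 34 genes, or 55.9%, against 64.4% of all tested genes. Probe sets were a second source of spread. Of 20 genes with more than 1 probe set above the dim limit, 10 had the same sign over all of them, among them Hmgcs1, Hsd17b7, Srebf2, Insig2, Elovl5, Elovl6 and Fads1.

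**Figure D4:**
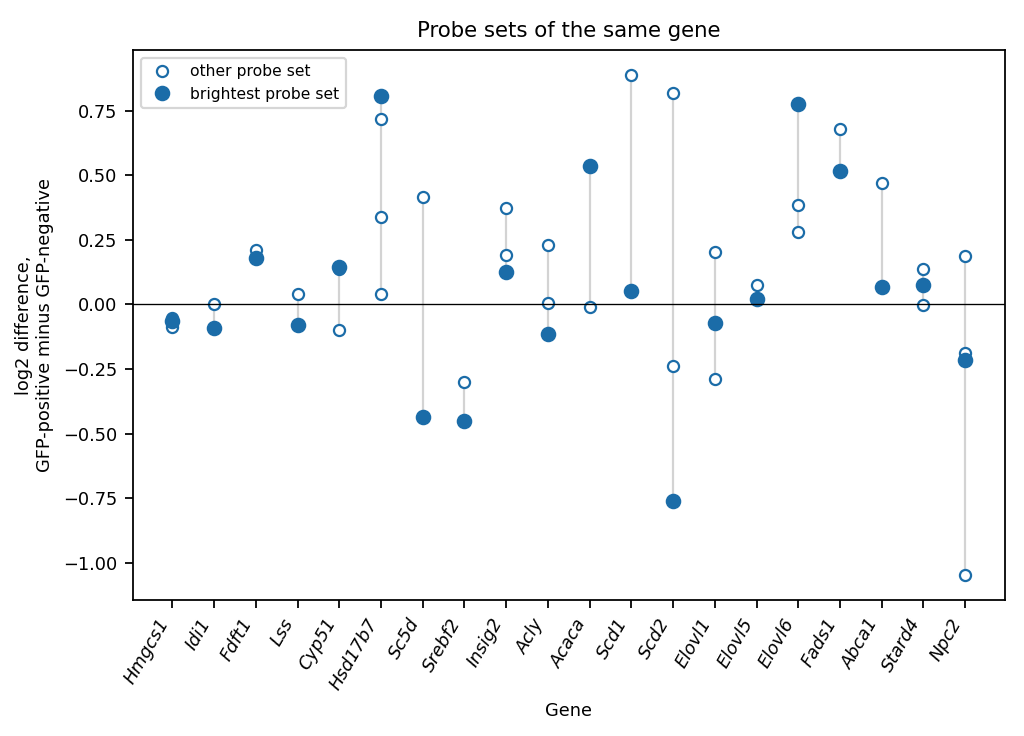
Log2 difference, GFP-positive minus GFP-negative (y axis), of every probe set above the dim limit for the 20 sterol and fatty acid genes that have more than 1 (x axis); filled points are the brightest probe set of the gene and open points the others. The 5 probe sets of Hmgcs1 lie between -0.09 and -0.05, while those of Scd2 reach from -0.76 to 0.82 and those of Npc2 from -1.05 to 0.19.

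Beyond the listed genes, 79 other genes of lipid metabolism were looked at, of which 58 were tested. Their median difference was 0.09. At an unadjusted p under 0.05, 6 of the 58 were higher and 2 lower, close to the 10.2% and 4.37% of all tested genes, and at an adjusted p under 0.05 limma called 0. Of 12 tested genes of fatty acid uptake and lipid storage, 3 were higher and 1 lower at the unadjusted threshold, against the same shares. Dgat2, which makes triglyceride for lipid droplets, gave signals of 122 and 75.8 in the GFP-negative samples and 512 and 320 in the GFP-positive samples. The groups were well apart, and its difference was 1.90 (1.09 to 2.72), with an adjusted p of 0.151 and 1.94 and 1.87 within the replicate numbers. The part of epithelial cells in the Dgat2 signal was not tested. Plin2, a lipid droplet coat protein, had signals of 236 and 264 against 380 and 388 and a difference of 0.59 (0.07 to 1.11). Plin3, a related coat protein, had a difference of 0.77 (0.24 to 1.29), and Agpat3, an acyltransferase of phospholipid synthesis, of -0.94 (-1.45 to -0.43).

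Of 11 tested genes of other sterol regulation and transport, 2 were higher at an unadjusted p under 0.05 and 0 lower by limma, against 10.2% and 4.37% of all tested genes, which also stand beside the counts that follow. Osbpl3, a lipid-binding protein of membrane contact sites, had signals of 355 and 279 against 881 and 904 and a difference of 1.46 (0.90 to 2.02, adjusted p = 0.144). Abca7, a lipid transporter related to Abca1, had a difference of 0.74. Of 5 tested genes on the list of other sterol synthesis genes, 1 was lower, namely Acat1, at -0.81 (-1.35 to -0.27, adjusted p = 0.241). Acat1 was put on that list although its product, an acetoacetyl-CoA thiolase, is the mitochondrial one. Of 16 tested genes of other fatty acid synthesis and activation, 1 was higher, namely Elovl4, an elongase of very long chains, at 0.83. Of 14 tested genes of fatty acid oxidation, 0 were higher and 0 lower at that threshold by limma, and their median was -0.12, ranging from -0.39 to 0.61.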

How the data were processed

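Total RNA of 4 sorted samples, 2 GFP-negative and 2 GFP-positive, was extracted with Trizol and put on Affymetrix mouse arrays after a biotin label, per the labels' protocols. Groups and replicate numbers came from the sample titles. The values that the authors deposited are intensities on a linear scale, 1 per probe set. The software that made them is not given in the sources used here. All 4 arrays had the same trimmed mean, but their medians split by sorted fraction. Over all probe sets, GFP-positive replicates 1 and 2 had the higher medians, 46.0 and 45.2. Those of GFP-negative replicates 1 and 2 were 37.0 and 36.1. Scaling by 1 factor per array therefore does not level dim against bright signals. How far this offset contributed to the differences of dim genes such as Mvk and Acaca was not tested. The number of arrays limits the precision.

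From these, log2(signal + 16) was computed, which understates differences of dim genes. Of 45101 probe sets, 64 were controls, 34945 carried 1 gene symbol in the platform annotation and 932 several. Each gene took its probe set of highest mean log2(signal + 16), and those over the 40th percentile of all probe sets other than controls were tested with limma 3.58.1 in R 4.3.3 (group as the only term, two-sided, eBayes without trend, Benjamini-Hochberg over 12252 genes), after the fit was tested on simulated data. Intervals are 95%. The members, gene lists and motifs were chosen with earlier results of these data known. Signals on all arrays are given for genes at an unadjusted p under 0.05, for those whose groups did not overlap and differed by at least 0.5, and for up to 3 of the brightest in each role; Sqle, Scap, Srebf1, Abca1, Fads2, Fasn and alternate probe sets were added after their values were seen. Marker lists covered CD4 T, macrophage and dendritic, B and plasma, epithelial, stromal and endothelial, and CD8 T and NK cells. There were 13 alternative settings, covering the pseudocount, normalization, dim filter, probe set summary, replicate block, limma settings and leaving out each array.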

Additional observations from a re-analysis of the deposited data

How the results depend on the processing

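At an adjusted p under 0.05 limma called 0 of the sterol and fatty acid genes in the main analysis and in all 13 alternatives, with 4 at an unadjusted p under 0.05 and higher in the main analysis. That count of higher genes was 1 under median scaling and 2 with the mean of all probe sets. With that mean the 2 genes were Fads1 and Hsd17b7, so Mvk, Elovl6 and Acaca were no longer among them. The count of lower genes, 0 in the main analysis, was 2 with a pseudocount of 64, 2 with trend and robust settings, 6 under median scaling, and from 0 to 1 without 1 array. The median difference of the tested genes moved to -0.31 under median scaling and to 0.048 with the mean of all probe sets. Over all tested genes limma called 4 in the main analysis, 175 with a pseudocount of 64, 240 with trend and robust settings, 6 with the mean of all probe sets and 0 in each of the other 10 alternatives. The cause of these changes was not tested.

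The replicate number was also used as a replicate block. Deviations of same-numbered arrays correlated at 0.198, and the labels do not say that equal numbers share mice. With the block 5 genes were higher at an unadjusted p under 0.05, Fads2 being added, and 0 lower, and the smallest adjusted p was 0.152.

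Of 34 tested genes, 14 kept their sign in every alternative that tested them. The other 20 changed sign in at least 1, in 43 values in all, none of them with an unadjusted p under 0.05. Under quantile normalization the changed values were 0.023 for Insig1, -0.062 for Abca1 and -0.050 for Npc1. Under cyclic loess normalization they were 0.013 for Hmgcs1, 0.038 for Insig1, -0.054 for Abca1 and -0.048 for Npc1. Under median scaling they were -0.12 for Fdft1, -0.17 for Cyp51, -0.070 for Srebf1, -0.021 for Scap, -0.17 for Insig2, -0.25 for Scd1, -0.30 for Elovl5, -0.20 for Abca1, -0.24 for Stard4 and -0.12 for Npc1. With the mean of all probe sets they were -8.95e-05 for Fdft1, 0.33 for Lss, 0.14 for Sc5d, -0.10 for Scap and 0.0036 for Elovl1. Without 1 array the range of the difference was -0.15 to 0.022 for Hmgcs1, -0.73 to 0.43 for Mvd, -0.25 to 0.064 for Idi1, -0.73 to 0.11 for Fdps, -0.048 to 0.41 for Fdft1, -0.62 to 0.46 for Lss, -0.036 to 0.32 for Cyp51 and -0.36 to 0.031 for Ebp. It was -0.12 to 0.53 for Srebf1, -0.12 to 0.040 for Insig1, -0.10 to 0.36 for Insig2, -0.82 to 0.92 for Scd1, -0.15 to 0.0018 for Elovl1, -0.13 to 0.17 for Elovl5, -0.18 to 0.025 for Abcg1, -0.054 to 0.21 for Stard4 and -0.25 to 0.52 for Npc1. Near the dim limit, as for Mvk, Acaca, Fads2 and Fasn, the signal over background limits the values.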
